A study of Homo sapiens with 6 samples.

Results

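Matricellular glycoproteins are secreted into the extracellular matrix, where they act on cells rather than build the scaffold. They bind integrins, CD47, CD36, syndecans, growth factors and collagens, loosen or redirect cell adhesion, and are best known from wound repair and from the stroma around carcinomas. Most of them are made in larger amounts by fibroblasts than by epithelium, and *SPP1* (osteopontin) is a known target gene of the vitamin D receptor in bone cells. The group described here holds 7 genes, *THBS1*, *THBS2*, *THBS3*, *SPARC*, *TNC*, *POSTN* and *SPP1*, listed by name. Each gene was read from the features that carry its symbol and no other symbol, and where a gene had several such features the one with the highest mean over all arrays stood for it. This gave 7 genes of 33458 genes with a symbol of their own, and 8 features in all, because *THBS3* had 2.

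Total RNA came from CaSki cells, an established line from a cervical carcinoma that carries HPV16, incubated for 24 hours in medium with charcoal-stripped serum and either 10 nM calcitriol, the hormonal form of vitamin D, or 0.1% ethanol as vehicle. It was hybridized to 6 Clariom D arrays, 3 with vehicle pools and 3 with calcitriol pools. Each pool mixed RNA of replicates from all the independent experiments, so a p-value here reflects only how pools of the same experiments varied, which can be mostly technical. In such bulk RNA, fewer cells that express a gene and less RNA per cell cannot be told apart.

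Signals below are the deposited log2 values, on which a difference of 1 is a doubling. A feature was held to be above the negative controls when its mean exceeded 6.32, the 95th percentile of 612 negative control features, whose median was 4.44. Features differ in how strongly their probes respond, so signals of different genes are not amounts of RNA. A gene was called when its groups differed by at least 1.5-fold with an unadjusted p under 0.05 in limma. That p alone was reached by 13.2% of the negative control features. It was reached by 5.41% of all features and 9.05% of coding genes above the negative controls. Of all 138745 features, 1.56% were called lower and 1.43% higher with calcitriol, and 0.000721% (1 feature) passed an adjusted p of 0.05.

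That feature belonged to *CYP24A1*, the hydroxylase that degrades calcitriol and the classical target of its receptor. Its signal was 4.31 to 5.77 in the vehicle pools and 11.68 to 13.27 in the calcitriol pools, so the arrays separated according to their labels. All 6 measured epithelial markers lay above the negative controls, and the mean of this list was 15.65 to 15.83 in the vehicle and 15.47 to 15.64 in the calcitriol pools. Of the fibroblast markers, 2 of 7 measured lay above that level (*COL1A1* and *COL1A2*), against 0 of 5 for endothelium and 1 of 5 for leukocytes (*CD68*). The *COL1A1* feature has a symbol but no Entrez identifier in the platform annotation, so its reading is less certain. No gene of these marker lists was called in either direction. Array pairs correlated at 0.981 to 0.984 across all features. Bright coding genes were lower as a whole on the calcitriol arrays. Of 8241 coding genes above the negative controls, 78% had a negative difference, the median being -0.16, whereas the median of all features was 0. Among these coding genes 4.31% were called lower and 0.218% higher, and 8 exogenous control features had a median difference of -0.31. The part of this shared shift in the values below was not tested beyond the rescalings given with them.

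Of the 7 genes, *THBS1* was lower with calcitriol and was called, none was called higher, and 4 genes could not be read as expressed. By comparison, 1.56% of all features were called lower and 1.43% higher. The shares were 4.31% and 0.218% for coding genes above the negative controls. *THBS1*, *TNC* and, by its brightest feature, *THBS3* lay above the negative controls. The other *THBS3* feature, with an Entrez identifier, had a mean of 6.31, just under that level. *THBS2*, *SPARC*, *POSTN* and *SPP1* lay below even the median of those controls on all 6 arrays. Differences were negative for 6 of the 7 genes, against 66.9% of all coding genes and 78% of those above the negative controls. Among the 6 are *THBS2*, *POSTN* and *SPP1*, which lay at background. The median over the 7 genes was -0.19 on the deposited scale and 0.15 after centring on the exogenous controls. No gene passed the adjusted threshold, and the smallest adjusted p among them was 0.915 in limma.

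**Figure D1:**
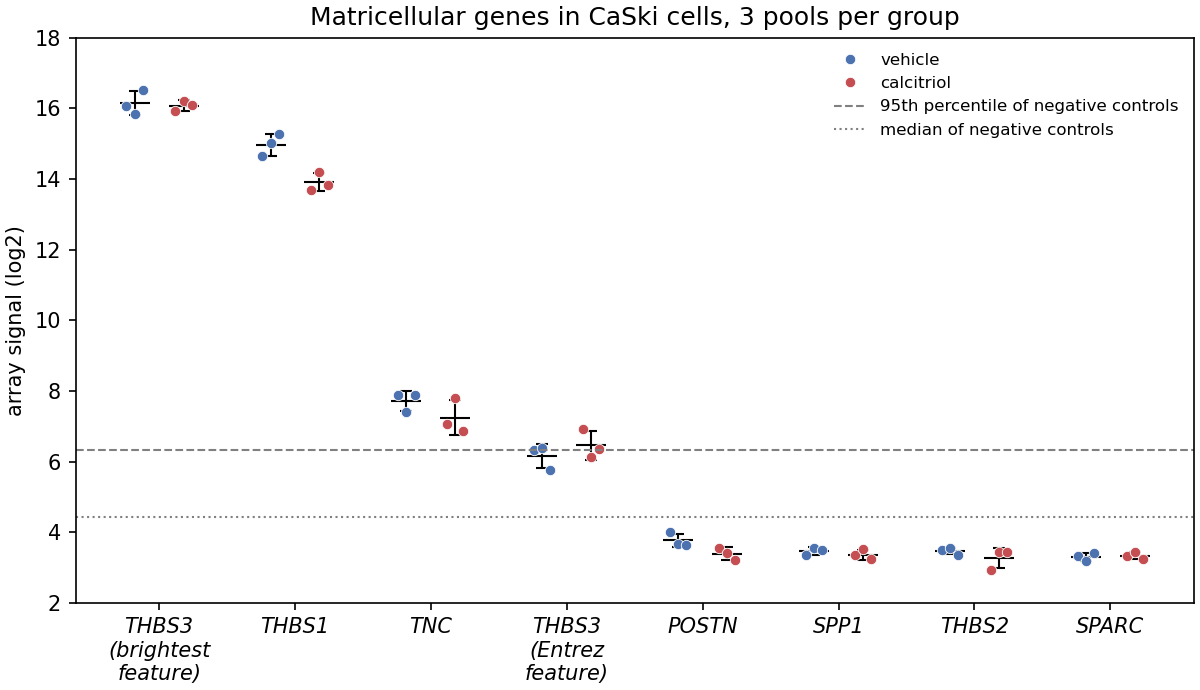
Array signal (log2) of each of the 8 features in 3 vehicle pools (blue) and 3 calcitriol pools (red), with the mean and SD as black bars, the dashed line at 6.32 and the dotted line at 4.44 marking the 95th percentile and median of the negative controls. The *THBS1* groups are apart, the *TNC* and *THBS3* groups overlap, and 4 genes lie below both lines.

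*THBS1* encodes thrombospondin-1, a trimeric glycoprotein that binds CD47 and CD36, restrains angiogenesis and activates latent transforming growth factor beta. Its signals were 14.65, 15.01 and 15.27 in vehicle pools 1 to 3 and 13.70, 14.20 and 13.83 in calcitriol pools 1 to 3. All 3 calcitriol pools lay under the lowest vehicle pool. The means were 14.98 ± 0.31 with vehicle and 13.91 ± 0.26 with calcitriol (SD, n = 3 pools each). The difference was -1.07 (SE 0.22, 95% interval -1.58 to -0.56), or 2.09-fold lower with an interval of 1.47 to 2.98, and it exceeded the spread between pools (limma, unadjusted p = 0.00117, adjusted p = 0.915). *THBS1* ranked number 19 from the lowest difference among the 8241 coding genes above the negative controls. By brightness its feature was number 576 of the same genes. The call held under every rescaling tried, with -0.72 after centring on the exogenous controls and -0.90 after subtracting the median of the bright coding genes.

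The 250 bases before the RefSeq start of *THBS1* are shown because it is the gene with a call. Those of *THBS2*, its closest relative in the group but one with no readable signal, and of *TNC*, the gene above the controls with the next lowest difference, stand beside it. Capitals mark matches, on either strand, to the TATA box (TATAAA), the CCAAT box, the GC box (GGGCGG), the AP-1 site (TGANTCA) and the site of TEAD factors (GGAATG). The windows are chr15:39580829-39581078 on the plus strand for *THBS1*, chr6:169253847-169254096 on the minus strand for *THBS2* and chr9:115118158-115118407 on the minus strand for *TNC*, in RefSeq GRCh38.p14, written 5′ to 3′ along each gene.
THBS1: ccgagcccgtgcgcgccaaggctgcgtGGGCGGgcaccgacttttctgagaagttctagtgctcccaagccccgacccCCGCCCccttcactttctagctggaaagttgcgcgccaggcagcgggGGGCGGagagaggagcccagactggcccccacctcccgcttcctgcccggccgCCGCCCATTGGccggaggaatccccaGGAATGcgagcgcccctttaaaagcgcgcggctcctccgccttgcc
THBS2: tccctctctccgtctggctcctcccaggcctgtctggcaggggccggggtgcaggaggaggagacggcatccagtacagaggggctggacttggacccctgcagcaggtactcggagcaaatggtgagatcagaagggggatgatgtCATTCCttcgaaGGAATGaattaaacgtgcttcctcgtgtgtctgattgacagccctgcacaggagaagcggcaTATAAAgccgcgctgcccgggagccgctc
TNC: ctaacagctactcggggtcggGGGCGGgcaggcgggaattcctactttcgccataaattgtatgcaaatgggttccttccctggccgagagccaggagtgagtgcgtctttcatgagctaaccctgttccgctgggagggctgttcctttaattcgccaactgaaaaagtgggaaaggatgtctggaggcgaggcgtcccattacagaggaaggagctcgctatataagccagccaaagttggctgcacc
The *THBS1* window was 69.6% G and C and held 4 GC boxes, beginning 223, 172, 125 and 72 bases before the start, a CCAAT box 66 bases before it, and a TEAD site 46 bases before it. In the *THBS2* window, with 60.0% G and C, a TEAD site began 103 bases before the start in reverse orientation and another 91 bases before it in forward orientation, and a TATA box stood at 29 bases. The *TNC* window, with 54.8% G and C, held 1 GC box at 229 bases and none of the other letters.

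Windows were found for all 7 genes, of which *THBS3* had 2. Of 35116 windows of that length before RefSeq starts, 42.6% held a GC box, 32.0% a CCAAT box, 11.9% a TEAD site, 10.7% a TATA box and 6.57% an AP-1 site. Among the 7 genes the GC box occurred in *THBS1*, *THBS3* and *TNC*. The CCAAT box was found in *THBS1* and *THBS3*, the TEAD site in *THBS1*, *THBS2* and *SPARC*, the TATA box in *THBS2* and *POSTN*, and the AP-1 site in *POSTN* alone. A CArG box, the site of serum response factor, and a DR3 element, the repeat bound by the vitamin D receptor with its RXR partner, were present in 1.16% and 0.0655% of windows and in none of the 7 genes. These matches describe letters in a short window and do not show that a factor binds there.

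*TNC* encodes tenascin-C, a six-armed glycoprotein of healing wounds and tumour stroma that weakens adhesion to fibronectin. Its signals were 7.87, 7.40 and 7.88 in vehicle pools 1 to 3 and 7.05, 7.80 and 6.86 in calcitriol pools 1 to 3. Calcitriol pool 2 was as high as the vehicle pools and the other calcitriol pools were lower, so the groups overlapped. With means of 7.72 ± 0.28 and 7.23 ± 0.49 (SD, n = 3 pools each), the difference of -0.48 did not pass the test (SE 0.27, 95% interval -1.11 to 0.14, limma unadjusted p = 0.114). That interval reaches beyond 1.5-fold lower, so these pools do not settle whether *TNC* differed by that much. One pool decided this value, since without calcitriol pool 2 the difference was -0.76 (limma unadjusted p = 0.0118) and *TNC* was called. Its feature lay above 99.3% of the negative controls but was dim for a coding gene, number 6675 of 8241 by brightness.

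*THBS3* encodes thrombospondin-3, a pentameric member of the family that acts in skeletal growth in mice. It had 2 features with signals far apart. The brightest, which stood for the gene by the rule, has a symbol but no Entrez identifier in the platform annotation and read 16.07, 15.85 and 16.53 in vehicle pools 1 to 3 and 15.93, 16.22 and 16.09 in calcitriol pools 1 to 3. The groups overlapped fully, with a difference of -0.07 (SE 0.22, 95% interval -0.56 to 0.43, limma unadjusted p = 0.769), an interval that stays inside a 1.5-fold change in both directions. The other feature, which carries the Entrez identifier, read 6.33, 6.38 and 5.76 with vehicle and 6.91, 6.12 and 6.35 with calcitriol. Its mean of 6.31 lay just under the level of the negative controls, 4 of its 6 arrays lay above it, and its difference was 0.30 (SE 0.26, 95% interval -0.30 to 0.90, limma unadjusted p = 0.279). Which stretch of the gene either feature covers is not given in the sources used here. In RefSeq the gene overlaps the antisense transcript *THBS3-AS1* and the start of *MTX1*, so how much of the bright signal is *THBS3* messenger RNA is uncertain. After centring on the exogenous controls the feature with the identifier was at 0.65 (limma unadjusted p = 0.046) and met the rule for a call, which it did not on the deposited scale. The difference of the bright feature turned positive under 5 alternatives and stayed negative under 10.

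**Figure D2:**
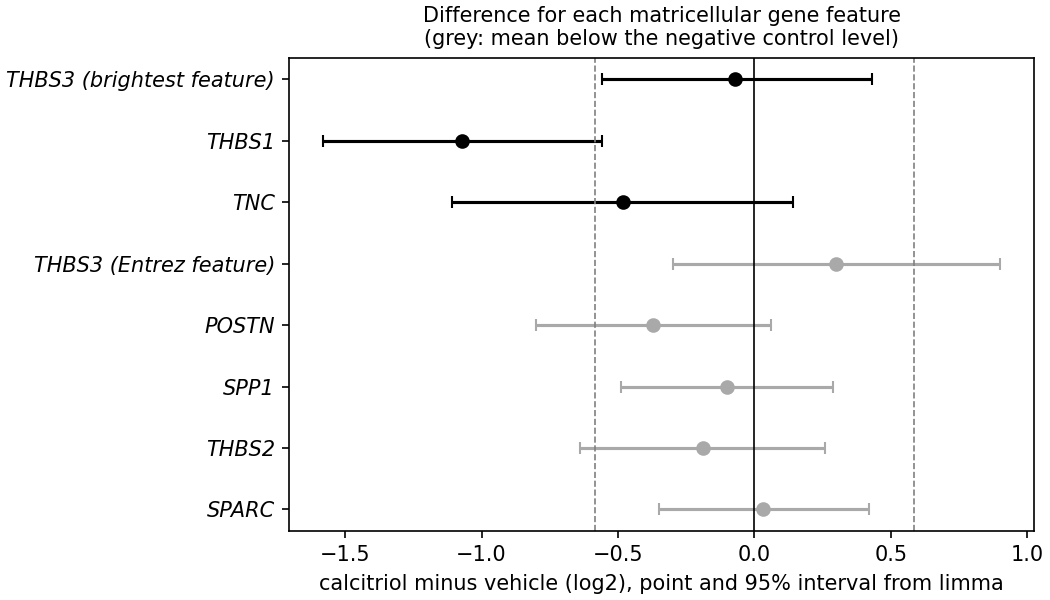
Calcitriol minus vehicle (log2) for each of the 8 features, as the point estimate and 95% interval of limma, with grey for features whose mean was below the negative control level and dashed lines at 1.5-fold. The *THBS1* interval, -1.58 to -0.56, excludes 0, and all other intervals include it.

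*THBS2* encodes thrombospondin-2, an angiogenesis inhibitor of connective tissue fibroblasts. It read 3.49, 3.54 and 3.36 in vehicle pools 1 to 3 and 2.94, 3.44 and 3.43 in calcitriol pools 1 to 3, with overlapping groups. Only 10.8% of the negative control features were dimmer. The difference was -0.19 (SE 0.20, 95% interval -0.64 to 0.26, limma unadjusted p = 0.356), and it was 0.15 after centring on the exogenous controls.

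*SPARC*, or osteonectin, is a collagen-binding glycoprotein of bone and remodelling stroma. Signals of 3.32, 3.17 and 3.41 with vehicle and 3.32, 3.43 and 3.25 with calcitriol were indistinguishable, at a difference of 0.03 (SE 0.17, 95% interval -0.35 to 0.42, limma unadjusted p = 0.848). Its feature was brighter than 10.1% of the negative controls.

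*POSTN* encodes periostin, a fasciclin-domain protein that promotes collagen crosslinking and supports integrin-dependent migration. Its vehicle pools read 3.99, 3.67 and 3.64 and its calcitriol pools 3.56, 3.41 and 3.21, so that the groups did not overlap. The difference was -0.37 (SE 0.19, 95% interval -0.80 to 0.06, limma unadjusted p = 0.081) and was not called. Because only 17.2% of the negative controls were dimmer, the separation is one between signals at background. Groups did not overlap, with calcitriol lower, for *THBS1* and *POSTN*, or 2 of the 7 genes, against 5.55% of all features and 15.5% of coding genes above the negative controls. None of the 7 was separated with calcitriol higher, against 5.16% of all features and 1.1% of those coding genes.

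*SPP1* encodes osteopontin, a phosphoprotein ligand of integrins and CD44. It read 3.34, 3.54 and 3.50 with vehicle and 3.35, 3.51 and 3.23 with calcitriol, overlapping throughout. The difference was -0.10 (SE 0.17, 95% interval -0.49 to 0.29, limma unadjusted p = 0.584), and 11.8% of the negative controls were dimmer. A gene at background on every array has no level here, and no order is read among *THBS2*, *SPARC*, *POSTN* and *SPP1*. Their intervals concern the signals of the features and do not bound a change in transcripts that were not detected.

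**Figure D3:**
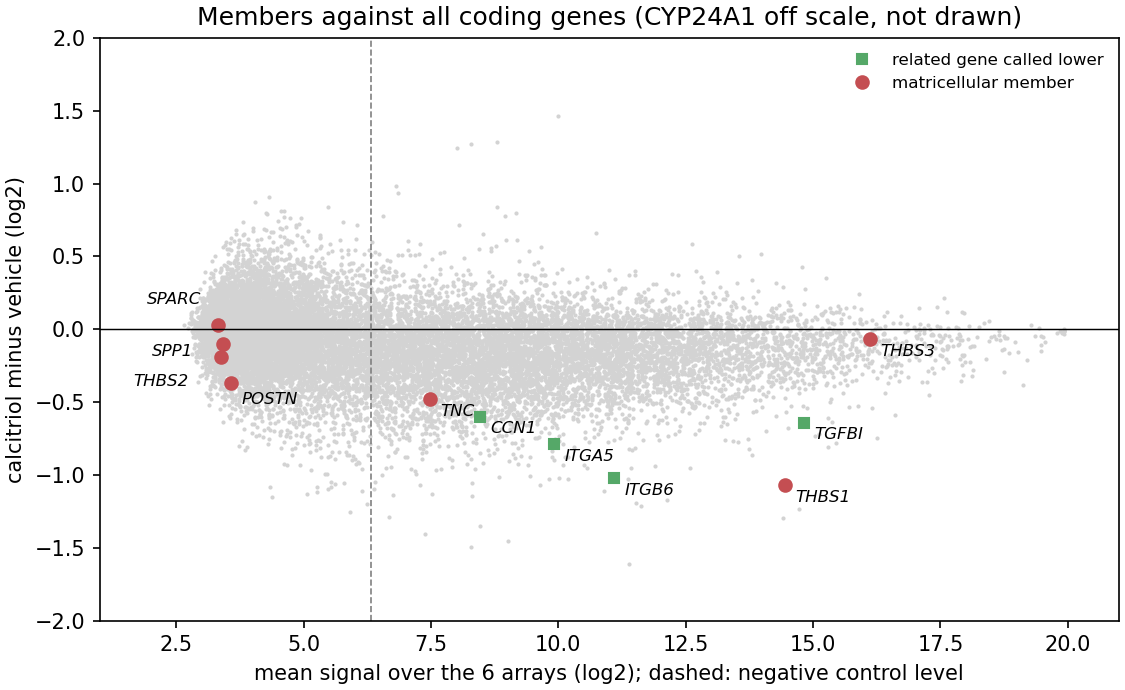
Calcitriol minus vehicle (log2) against mean signal over the 6 arrays (log2) for all coding genes (grey), the 7 matricellular genes (red circles) and the related genes above the controls that were called lower (green squares), with the negative control level dashed and *CYP24A1* off the scale. *THBS1*, *ITGB6*, *ITGA5*, *TGFBI* and *CCN1* lie below 0, from -1.07 for *THBS1* to -0.60 for *CCN1*, while 4 matricellular genes lie at background on the left.

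Related matricellular genes were read from a list of 22 measured relatives. Of these, 2 lay above the negative controls, *TGFBI* and *CCN1*. Both were called lower on the deposited scale, against 4.31% of coding genes above that level and 1.56% of all features. Neither call held under quantile normalization, centring on the exogenous controls or subtraction of the median of the bright coding genes, each of which left 0 relatives called lower. *TGFBI* (transforming growth factor beta-induced protein) is the nearest relative of periostin and an integrin ligand. It read 15.09, 15.05 and 15.27 with vehicle and 14.29, 14.68 and 14.52 with calcitriol, without overlap and with a difference of -0.64 (SE 0.18, limma unadjusted p = 0.00661). *CCN1*, an integrin-binding protein induced by serum and by YAP and TEAD factors, read 8.88, 8.81 and 8.59 with vehicle and 8.22, 8.05 and 8.21 with calcitriol, with a difference of -0.60 (SE 0.17, limma unadjusted p = 0.00741). Its groups did not overlap either.

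The other 20 relatives lay below the negative control level. One of them, *IBSP* (bone sialoprotein, like osteopontin a phosphoprotein of mineralized tissue), was called higher, from 3.38, 3.55 and 3.41 with vehicle to 3.88, 4.13 and 4.53 with calcitriol. Those signals are background, since 26.6% of the negative controls were dimmer than its mean, and 1.43% of all features were called higher. *DMP1*, another phosphoprotein of bone and dentin, was also separated with calcitriol higher, at 0.35 (limma unadjusted p = 0.108). Its highest vehicle and lowest calcitriol signals both round to 4.12, and its mean of 4.1 lay under the median of the negative controls. Of all features, 5.16% were separated in that direction. *DSPP* and *MEPE* were at -0.12 and -0.03. In the SPARC family *SPOCK3*, *SPARCL1*, *SMOC1* and *SMOC2* were at 0.33, -0.27, -0.21 and -0.12, all with overlapping groups and all at background. The median difference of the 22 relatives was -0.08, against -0.09 for all coding genes and 0 for all features. Among the remaining CCN proteins, *CCN2*, the connective tissue growth factor, was at -0.43 (limma unadjusted p = 0.0616). *CCN3* and *CCN6* were at -0.39 and -0.46 (limma unadjusted p = 0.0742 for each), and none of these was called. *THBS4* and *COMP*, thrombospondins of tendon and cartilage, and the tenascins *TNR*, *TNXB* and *TNN* were at background with differences from -0.19 to 0.11. All relatives had an adjusted p of at least 0.915.

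Receptors through which these glycoproteins act were mostly present. Of 18 receptors, 12 lay above the negative controls. Called lower were 2, both above that level, against 1.56% of all features and 4.31% of coding genes above the controls. None was called higher, against 1.43% and 0.218%. The median difference over all 18, including those below the level, was -0.25. It was -0.09 for all coding genes and -0.16 for coding genes above the level. *ITGB6*, the epithelial partner of the alpha v integrin subunit that binds tenascin-C, fibronectin and latent transforming growth factor beta, read 11.15, 11.66 and 12.02 with vehicle and 10.39, 10.70 and 10.70 with calcitriol. The groups were apart, with a difference of -1.02 (SE 0.24, limma unadjusted p = 0.00267). *ITGA5*, the fibronectin receptor subunit, read 10, 10.53 and 10.38 with vehicle and 9.61, 9.53 and 9.40 with calcitriol, a difference of -0.79 (SE 0.19, limma unadjusted p = 0.00329). Only 1 receptor was called lower after centring on the exogenous controls, and 1 with the mean of all features of a gene.

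Further receptors had the same sign without reaching a 1.5-fold difference. *CD47*, the thrombospondin-1 receptor that also signals to macrophages, went from 12.64 ± 0.16 to 12.14 ± 0.03 (SD, n = 3 pools each), a difference of -0.51 (limma unadjusted p = 0.0162). *ITGAV*, the alpha v subunit itself, was at -0.48 (limma unadjusted p = 0.0338). *ITGA3*, a laminin and thrombospondin receptor subunit, was at -0.36 (limma unadjusted p = 0.0533). Groups did not overlap, with calcitriol lower, for 15.5% of coding genes above the negative controls and 5.55% of all features. Among the receptors this held for 7 of 18, all of them among the 12 above that level. *SDC4*, a heparan sulphate proteoglycan, and *CALR*, a chaperone that serves thrombospondin-1 as a co-receptor at the cell surface, were the remaining ones, at -0.33 and -0.21. *CD44*, at -0.02, and *ITGB1*, at -0.06, were near 0. *CD36*, the receptor for thrombospondin-1 on endothelium and macrophages, and *ITGB3* lay below the negative controls.

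Among matrix partners, the collagens, fibronectin and growth factor proteins that these glycoproteins bind, 8 of 12 measured lay above the negative controls and none was called. Of coding genes above the controls, 4.31% were called lower and 0.218% higher, so in a list this short no call is near those shares. *FN1* (fibronectin) read 10.33, 10.31 and 10.58 with vehicle and 9.66, 10.20 and 9.69 with calcitriol. Its difference of -0.56 had an unadjusted p of 0.0253 in limma, short of 1.5-fold. *COL5A1*, a fibrillar collagen, was at -0.41 (limma unadjusted p = 0.0575) and *BMP1*, a procollagen protease, at -0.49 (limma unadjusted p = 0.0624). For *FN1*, *COL5A1* and *BMP1*, or 3 of the 12, the groups did not overlap, with calcitriol lower. The same held for 15.5% of coding genes above the negative controls and 5.55% of all features. *TGFB1*, the growth factor that thrombospondin-1 activates, was at -0.40 (limma unadjusted p = 0.22). *COL1A1*, by its feature without an Entrez identifier, and *COL1A2*, the chains of type I collagen, were at 0.17 and 0.11. The median over all 12 measured, including those below the negative controls, was -0.15. It was -0.09 for all coding genes and -0.16 for those above the negative controls, so the list is near that shared shift.

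**Figure D4:**
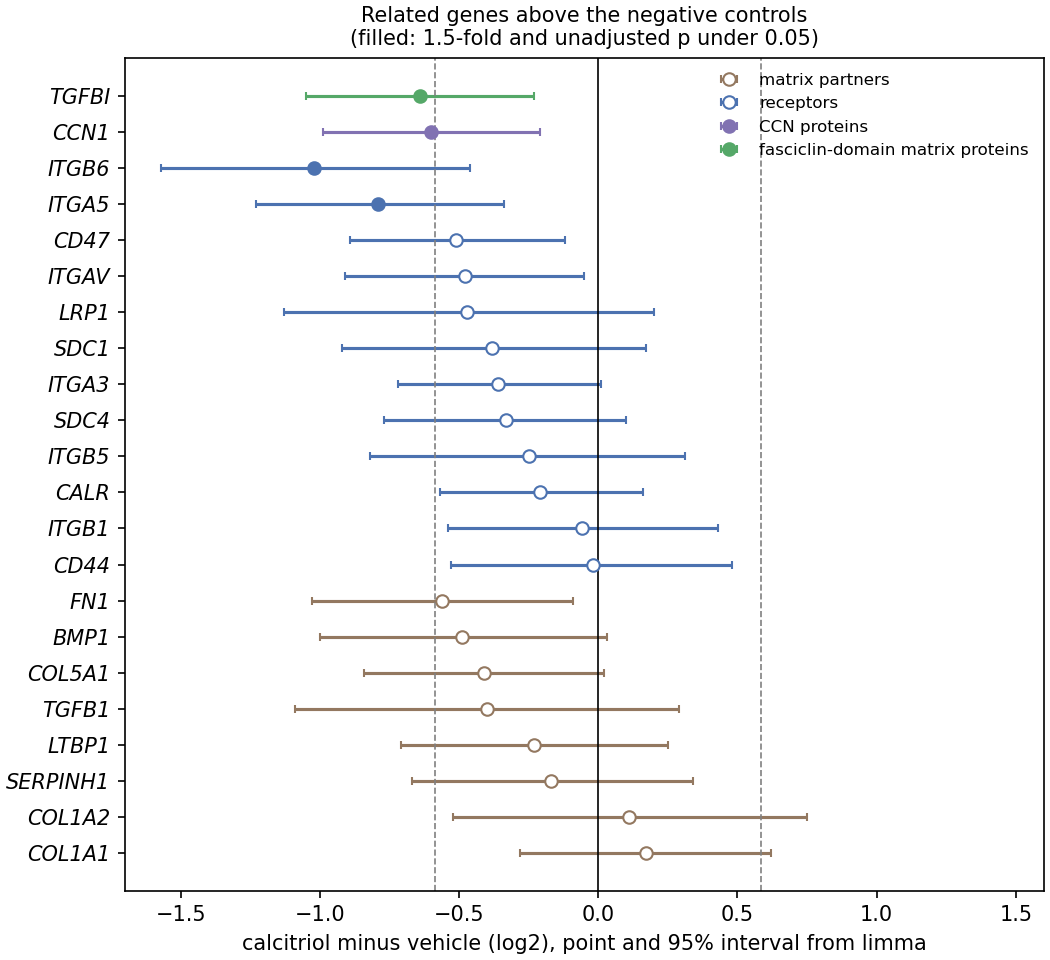
Calcitriol minus vehicle (log2) for the related genes above the negative controls, as point and 95% interval of limma, coloured by list, filled where called and with dashed lines at 1.5-fold. *ITGB6* at -1.02 and *ITGA5* at -0.79 lie furthest to the left, and *COL1A1* at 0.17 furthest to the right.

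For each member above the negative controls, coding genes above that level were ranked by how closely their signals followed it. The measure was Pearson correlation over the 6 arrays, which all genes share along with the treatment. For *THBS1* the closest were *ZNF674* (r = 0.9953), *P2RY6* (r = 0.9942) and *SERPINB13* (r = 0.9895), with differences of -0.57, -0.75 and -0.95. As many as 351 of 8240 genes had an r above 0.9 with *THBS1*, so the first 3 are not set apart from the rest. For *TNC* they were *BLTP2*, *BABAM1* and *CAMKK2*, with r from 0.9856 to 0.9927 and 165 genes above 0.9. For the bright *THBS3* feature they were *ZC3H11B*, *CDCP2* and *ZMAT3*, with r from 0.9494 to 0.9661 and 26 genes above 0.9.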

How the data were processed

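Per the study's methods, the authors processed the 6 Clariom D arrays (background correction, normalization) with Transcriptome Analysis Console v4.0.1 (algorithm and build: not stated in the sources used here). What the authors deposited, log2 signals summarised per gene for 138745 features, was analysed without further scaling, up to the ceiling of 19.93. No authors' fold changes were used. Exactly 1 symbol was given for 36176 features and several for 1119, which were left out of gene counts. The groups were compared by a linear model with moderated variances (limma 3.58.1 in R 4.3.3, 4.51 prior degrees of freedom). Its two-sided p-values were adjusted after Benjamini and Hochberg across the whole table, which holds 2995 control features. The study's rule of a false discovery rate under 0.05 was kept beside the unadjusted p. Promoter windows came from RefSeq GRCh38.p14. The number of arrays, 3 per group, limits the precision.

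The members and lists were chosen with earlier results of these data known. The text names all 7 members, *CYP24A1* and the 3 coding genes most like each member above the negative controls. In each related list it names every called gene and, up to 4 in all, those with the smallest p. The further receptors, collagens and relatives named were chosen after their values were seen. *KRT17* and *TP63* of the epithelial list, and *COL3A1*, *TGFB2* and *FSTL1*, had no feature of their own and were not analysed here. Alternatives were other scalings, variance models, filters, thresholds, feature rules, the replicate block and dropping each array in turn; the *THBS3* feature with an Entrez identifier and the shift by the median of bright coding genes were added after seeing the data. The model fit and the rule for a call were tested on simulated data with independent noise and no shared shift of bright genes. The control filter, rescalings, list counts, correlations and promoter search were not tested in this way.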

Additional observations from a re-analysis of the deposited data

How the results depend on the processing

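*THBS1* kept its sign and call under every other scaling, variance model, filter, block and array left out, and lost the call at an adjusted p of 0.05; its difference ranged from -1.23 to -0.72 (unadjusted p from 0.000278 to 0.0115, adjusted p from 0.212 to 0.994). Over the arrays left out in turn the difference ranged from -0.76 to -0.29 for *TNC*, from -0.22 to 0.13 for *THBS3* and from -0.03 to 0.09 for *SPARC*. The matching counts called lower ranged from 1 to 2 for the members, from 1 to 2 for the other matricellular genes and from 0 to 2 for the matrix partners, and those called higher from 0 to 1 for the other matricellular genes. The cause of these differences was not tested.

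Centring on the exogenous controls raised the median of all features by 0.34 and turned the calls over all features from 2160 lower and 1980 higher to 235 and 19051. It gave 0.15 for *THBS2*, 0.28 for *THBS3*, 0.25 for *SPP1*, 0.65 for the *THBS3* feature with an Entrez identifier and 0.15 for the members' median, with 0 other matricellular genes called lower and 3 higher, and 1 receptor lower. Subtracting the median of bright coding genes, a shift of 0.16 that gave 703 lower and 6169 higher calls, put *THBS3* at 0.10 and *SPP1* at 0.06 and left 0 other matricellular genes lower. Quantile normalization gave 0.04 for *THBS3* and 0 other matricellular genes lower. *THBS3* was at 0.12 as the mean of its features, a setting with 1 receptor called lower, and at 0.30 by the feature with an identifier. Keeping features above the controls alone gave a members' median of -0.48 and 0 other matricellular genes higher, since dim genes leave the list.

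At an unadjusted p alone, 4 receptors and 1 matrix partner were lower. At an adjusted p of 0.05 the counts were 0 for the members, 0 and 0 for the other matricellular genes lower and higher, and 0 for the receptors lower. The Tukey biweight average, which has no test, put *TNC* at -0.87. Deviations of equally numbered pools correlated at 0.048, 0.149 and 0.134 and of the other pairs at -0.144 to 0.011. Every pool was thus closest to its own number, a hint from the data, but 1 pair was under 0.1 and no label ties the numbers, so the pools were not treated as paired. With the replicate block *THBS1* stayed at -1.07 (limma unadjusted p = 0.00148), no call on the members or lists changed, and the calls over all features were 2439 lower and 2258 higher. Signals at background limit what *THBS2*, *SPARC*, *POSTN* and *SPP1* can show.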
